A study of Mus musculus with 32 samples.

Results

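The septins are GTP-binding cytoskeletal proteins that join into rods and filaments and lie against membranes, where they shape cell cortex, restrict diffusion and hold other proteins in place. Vertebrate septins fall into the SEPT2, SEPT3, SEPT6 and SEPT7 groups, and a filament is built from members of different groups, with Septin7 the only member of its own. In the brain they are found at presynaptic terminals, at the base of dendritic spines, in myelin and in the processes of glia. All 8 septin genes listed in the authors' count table were taken: Septin2, Septin3, Septin4, Septin5, Septin6, Septin7, Septin10 and Septin11. They were 8 of its 5582 genes and were matched by NCBI gene identifier, because a spreadsheet had turned their older symbols into dates. RefSeq holds 13 mouse septin genes, and Septin1, Septin8, Septin9, Septin12 and Septin14 were not analysed here. Selenof, which carried an older symbol of the same form, encodes a selenoprotein and was not counted.

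Bulk RNA-seq was performed on cortex with hippocampus at the lesion on day 14 from C57BL/6 mice homozygous for a targeted replacement of Apoe by human APOE3 or human APOE4. Traumatic brain injury (TBI) was 1 controlled cortical impact, a 3.0 mm tip driven 1.0 mm deep through a left parietal craniotomy, and shams had the anaesthesia and craniotomy alone. The groups were APOE3 sham (n = 7), APOE3 TBI (n = 8), APOE4 sham (n = 7) and APOE4 TBI (n = 8), each animal with 1 library, and 2 further animals with conflicting labels were left out. Every animal therefore carried a human APOE gene in place of the mouse one and had an opened skull, and neither mice with mouse Apoe nor unoperated mice were analysed here. Their ages are not stated in the labels used here. Titles also carry a letter, M or F, which the labels do not spell out, and it was a covariate in every fit except the alternative run without it.

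The table had been selected by the authors on TBI against sham in these animals, so its injury calls describe the listed genes and are no independent evidence. The genotype, interaction and title letter comparisons were not used in that selection. Their shares of genes called are still over genes selected on injury, and how the selection moves those shares was not tested. Summed over those genes, a library held 2262242 to 8606717 counts, with 14 shallow and 16 deep libraries among those compared, and both kinds in each group. Septin counts made up 0.36% to 0.44% of a library's listed counts. In bulk tissue, fewer cells of a type and less RNA per cell cannot be told apart. Levels are given as CPM, here counts scaled to a library's total over the listed genes, with TMM scaling. The listed genes were selected on injury, so these values are not CPM of the whole library. Only listed markers in the injury-selected table could be summed. Several sums moved with injury: 14 of 15 listed astrocyte genes ran from 15780 to 18290 CPM in sham and 19350 to 27480 in TBI. The 15 genes of microglia ran from 1079 to 1412 CPM in sham and 2127 to 4795 in TBI. The 11 excitatory neuron genes ran from 17110 to 21040 CPM in sham and 11890 to 18930 in TBI, and the 7 inhibitory neuron genes from 1831 to 2051 and 1411 to 1862. None of these genes was at 0 in any animal, and their part in the septin values was not tested.

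Promoters are shown for the pair of septins that were higher after injury, Septin2 and Septin10, and for Septin7 and Septin11, which were lower. Each is the 250 bases before a RefSeq transcript start (1 of 2 listed starts for Septin2 and for Septin7) in GRCm38.p6, written 5′ to 3′ on the gene's strand, and capitals mark the GC box, GGGCGG or its reverse complement CCGCCC.
Septin2, chr1:93478743-93478992, plus strand: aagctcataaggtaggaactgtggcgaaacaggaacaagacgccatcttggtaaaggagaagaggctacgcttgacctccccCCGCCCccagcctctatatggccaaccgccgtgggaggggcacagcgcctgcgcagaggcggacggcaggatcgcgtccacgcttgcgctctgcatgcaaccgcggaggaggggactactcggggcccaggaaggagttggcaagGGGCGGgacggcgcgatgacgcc
Septin10, chr10:59221501-59221750, minus strand: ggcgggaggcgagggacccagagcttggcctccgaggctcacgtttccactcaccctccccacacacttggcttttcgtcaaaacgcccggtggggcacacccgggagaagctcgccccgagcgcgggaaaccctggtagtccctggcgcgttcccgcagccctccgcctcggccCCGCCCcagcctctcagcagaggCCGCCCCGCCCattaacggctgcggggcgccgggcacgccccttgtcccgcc
Septin7, chr9:25251741-25251990, plus strand: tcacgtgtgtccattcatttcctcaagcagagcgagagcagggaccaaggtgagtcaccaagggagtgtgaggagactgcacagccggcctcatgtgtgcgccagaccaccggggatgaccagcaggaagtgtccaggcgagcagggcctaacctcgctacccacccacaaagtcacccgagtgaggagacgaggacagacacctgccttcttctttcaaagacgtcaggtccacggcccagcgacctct
Septin11, chr5:93093166-93093415, plus strand, before a start inside the annotated gene, which begins at 93090995: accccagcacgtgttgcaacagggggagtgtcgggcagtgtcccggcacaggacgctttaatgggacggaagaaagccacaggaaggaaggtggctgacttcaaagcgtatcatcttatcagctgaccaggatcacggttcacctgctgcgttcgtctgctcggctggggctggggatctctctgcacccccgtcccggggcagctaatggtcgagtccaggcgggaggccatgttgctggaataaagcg
The Septin2 window shown held 2 GC boxes and its other window 3, the Septin10 window held 3, and both Septin7 windows and that of Septin11 held 0. The Septin2 windows overlap and share both boxes of the window shown. Bases just after the start were found in a GENCODE transcript for both Septin2 windows and for Septin10. They were not found for either Septin7 window or for Septin11, so these counts show no contrast between higher and lower septins. A GC box on either strand was present in 32.7% of all 32851 windows of this kind. Septin4, which was also lower after injury, has 4 windows with 0 to 2 GC boxes. Septin3, Septin5 and Septin6 were not searched, so the 5 septins searched say nothing of the family as a whole. Of the other motifs searched on both strands in the printed windows, TGANTCA occurred in the Septin7 window and in 6.7% of all windows, and CCAAT (33.8% of windows), TATAAA (12.4%), TGACGTCA (1.5%) and TTCNNNGAA (7.0%) were in none of the printed windows. These matches describe letters in a window and not bound sites.

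After TBI, Septin2 and Septin10 were higher and the other 6 septins were lower, so the family moved in both directions at once. Over both genotypes all 8 passed edgeR's quasi-likelihood test with Benjamini-Hochberg adjustment over 5371 tested genes, at an adjusted p under 0.05. Of all tested genes 93.9% did, 48.1% higher and 45.9% lower, which is what selection on this contrast gives. The median log2 difference was -0.18 over the septins and 0.10 over all tested genes. In every TBI animal the summed septin CPM (3341 to 4167) lay below every sham (4250 to 4568) with TMM scaling. No septin was apart in this way on its own, while 6.18% of tested genes were. The share among sums of 8 listed genes was not computed. With total-count scaling, an alternative added after the data were seen, the ranges overlapped (3618 to 4132 in TBI and 4023 to 4412 in sham). All 8 directions held under every alternative scaling and model run, and scaling by total counts raised all injury differences by a median of 0.09 on the log2 scale. The 6 lower septins then lay between -0.14 and -0.08 over both genotypes, with the Septin3 difference at -0.12, and Septin4 and Septin11 did not pass. The highest septin genes by read count, Septin3, Septin5 and Septin7, make up most of that sum. In the authors' deposited table the log2 coefficients had the same directions, from 0.39 for Septin10 and 0.30 for Septin2 to -0.24 for Septin5.

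**Figure D1:**
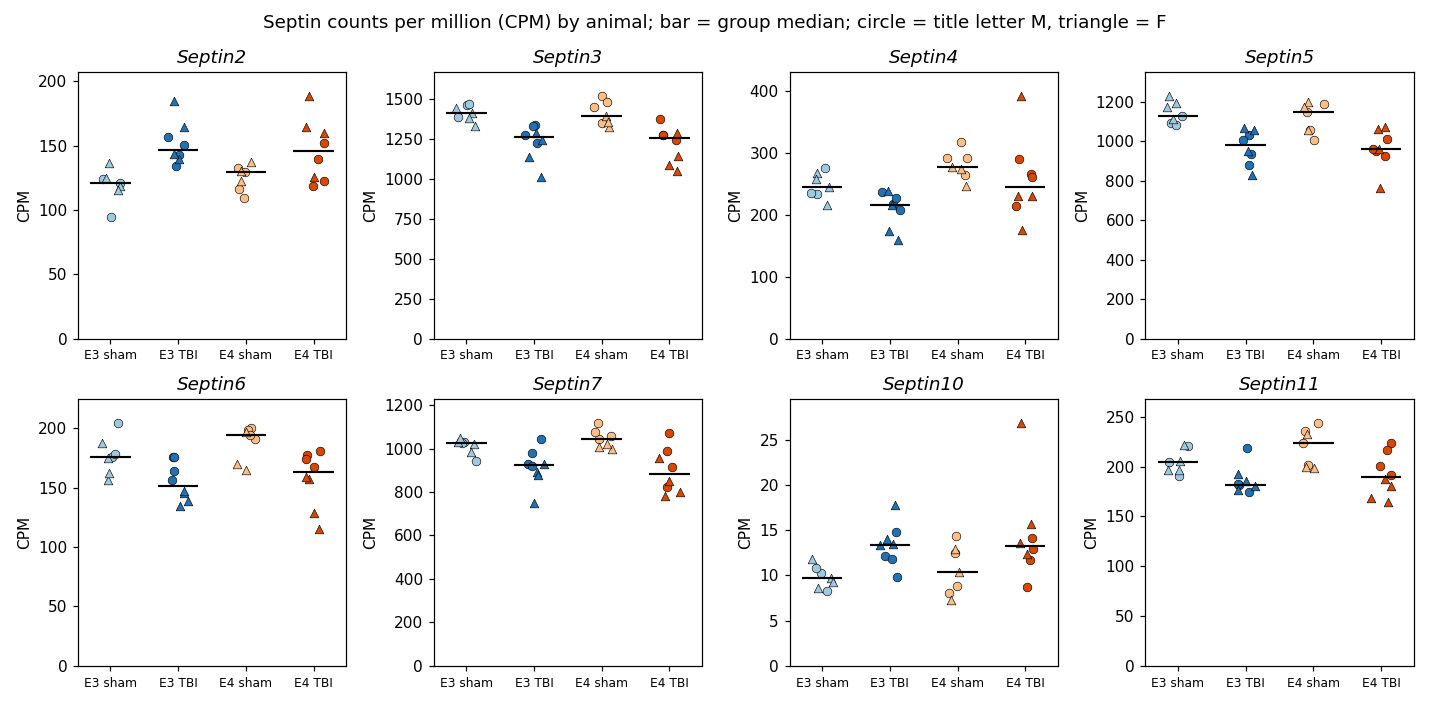
CPM (y axis from 0) of the 8 septins in each animal of the 4 genotype by injury groups. CPM are counts scaled to a library's total over the listed genes. Points are animals, bars are group medians, circles and triangles are the title letters M and F. Septin2 and Septin10 sit higher in TBI, the other 6 sit lower, and 1 APOE4 TBI animal stands at 26.8 CPM for Septin10.

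Septin2 belongs to the SEPT2 group, lines actin fibres and forms a diffusion barrier at the base of the primary cilium. It is at chr1:93478981-93509733 on the plus strand of GRCm38.p6. In APOE3 mice its lowest, median and highest level was 94.9, 120.8 and 136.2 CPM in sham and 134.5, 147.0 and 184.9 in TBI. In APOE4 mice the same values were 109.6, 129.8 and 137.6 CPM in sham and 118.6, 145.9 and 188.6 in TBI. Across genotypes 12 of 16 TBI animals lay above the highest of 14 shams, and the others lay within the sham range. Septin2 was 21.4% higher after TBI, a log2 difference of 0.28 ± 0.05 (SE; adjusted p = 5.04e-05). It rose by 0.36 ± 0.08 on the log2 scale in APOE3 mice (adjusted p = 0.000323) and by 0.20 ± 0.08 in APOE4 mice (adjusted p = 0.0246). The APOE4 call did not hold without any 1 of 5 APOE4 animals left out singly (replicates 3 and 5 of sham, replicates 3, 6 and 7 of TBI), with adjusted p up to 0.0795, nor with the disputed animals placed by characteristics (0.16, adjusted p = 0.0946), nor in shallow or deep libraries alone (adjusted p = 0.158 and 0.0769).

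Septin4, of the same group, is required for the annulus of mouse sperm and is found in the alpha-synuclein deposits of human Parkinson's disease. It is at chr11:87566689-87590543 on the plus strand. In APOE3 mice its lowest, median and highest level was 216.3, 244.9 and 274.5 CPM in sham and 159.5, 216.3 and 238.5 in TBI. In APOE4 mice it was 245.4, 277.5 and 317.7 CPM in sham and 175.8, 245.3 and 391.2 in TBI. The APOE4 TBI animals were the most spread, with 4 of 8 below every APOE4 sham and 1, replicate 8, above every one. Septin4 was lower by 0.18 ± 0.08 on the log2 scale over both genotypes (adjusted p = 0.0255), and it fell by 0.25 ± 0.11 in APOE3 mice (adjusted p = 0.0424). The APOE3 call did not hold without the title letter (adjusted p = 0.0519), with total-count scaling (-0.15, adjusted p = 0.26), in shallow or deep libraries alone (adjusted p = 0.205 and 0.131), or in 13 of the 30 fits that left out 1 animal. In APOE4 mice the log2 difference was -0.12 ± 0.11 and did not pass (adjusted p = 0.295), while without replicate 8 it was -0.23 and passed (adjusted p = 0.0187). The call over both genotypes did not hold without APOE3 sham replicate 6, APOE4 sham replicate 2 or APOE4 TBI replicate 4, with adjusted p up to 0.0572, nor in shallow or deep libraries taken alone (-0.10, adjusted p = 0.199, and -0.25, adjusted p = 0.0886), nor with total-count scaling (-0.09, adjusted p = 0.353).

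Septin5, the third SEPT2-group member here, sits on synaptic vesicles, binds syntaxin and restrains exocytosis. It is at chr16:18621811-18629938 on the minus strand. Of its exonic bases, 48.6% overlap exons of Gp1bb on the same strand and 56.3% those of Gm49601, a gene model over the same locus, so reads of these genes may not be separable. In APOE3 mice its lowest, median and highest level was 1082, 1129 and 1230 CPM in sham and 830.6, 980.0 and 1067 in TBI. In APOE4 mice it was 1007, 1151 and 1202 CPM in sham and 763.5, 961.6 and 1075 in TBI. All 8 APOE3 TBI animals lay below all 7 APOE3 shams, a separation that 18.6% of tested genes showed, and 5 of 8 APOE4 TBI animals lay below every APOE4 sham. Septin5 fell by 14.5%, a log2 difference of -0.23 ± 0.04 (adjusted p = 2.96e-05). The values by genotype were -0.23 ± 0.06 in APOE3 (adjusted p = 0.00156) and -0.22 ± 0.06 in APOE4 (adjusted p = 0.00346). The APOE4 call did not hold with the disputed animals placed by characteristics (-0.16, adjusted p = 0.085) or in deep libraries alone (-0.22, adjusted p = 0.101).

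Septin3 belongs to the SEPT3 group, is enriched in neurons and is found at presynaptic terminals. It is at chr15:82268802-82294574 on the plus strand. In APOE3 mice its lowest, median and highest level was 1326, 1412 and 1467 CPM in sham and 1007, 1259 and 1337 in TBI. In APOE4 mice it was 1319, 1388 and 1515 CPM in sham and 1047, 1256 and 1373 in TBI. Across genotypes 13 of 16 TBI animals lay below the lowest sham, the most of any septin, and none lay above the sham range. Septin3 fell by 13.4%, a log2 difference of -0.21 ± 0.03, with the smallest adjusted p of the family (3.76e-06). The difference was -0.21 ± 0.05 in each genotype taken alone (adjusted p = 0.000521 in APOE3 and 0.00075 in APOE4), and in deep libraries alone the APOE4 difference did not pass (-0.22, adjusted p = 0.0611).

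Septin7 is the subunit that most septin filaments need, and in rodent neurons it marks the base of dendritic spines. It is at chr9:25251991-25308571 on the plus strand. In APOE3 mice its lowest, median and highest level was 943.8, 1024 and 1048 CPM in sham and 750.2, 924.5 and 1042 in TBI. In APOE4 mice it was 996.6, 1042 and 1116 CPM in sham and 781.4, 881.6 and 1071 in TBI. In APOE4 mice 7 of 8 TBI animals lay below every sham, and in APOE3 mice 6 of 8 did. Septin7 fell by 12.03%, a log2 difference of -0.18 ± 0.04 (adjusted p = 0.000101). It fell by 0.16 ± 0.05 in APOE3 mice (adjusted p = 0.0137), a call that did not hold with total-count scaling (-0.07, adjusted p = 0.204) or in shallow libraries (-0.09, adjusted p = 0.324). In APOE4 mice it fell by 0.21 ± 0.05 (adjusted p = 0.00173), which did not hold in deep libraries alone (-0.22, adjusted p = 0.0563). A processed pseudogene on the opposite strand, Gm48272, shares 2.1% of its exonic bases.

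Septin6, Septin10 and Septin11 are the members of the SEPT6 group in this table, and this group's proteins take the place next to Septin7 in the filament. Septin6, on the X chromosome (chrX:36911272-36990036, minus strand), had lowest, median and highest levels of 156.4, 182.7 and 204.0 CPM over all shams and 115.3, 157.8 and 180.8 over all TBI animals. Septin11, which in rat neurons is found at dendritic spines and inhibitory synapses (chr5:93090995-93182368, plus strand), had 190.2, 205.2 and 243.4 CPM in sham and 164.6, 183.9 and 223.6 in TBI. Both by genotype and together, the TBI and sham ranges overlapped for both genes, with 7 of 16 TBI animals below every sham for Septin6 and 10 of 16 for Septin11. Septin6 fell by 0.23 ± 0.04 on the log2 scale (adjusted p = 2.45e-05) and Septin11 fell by 0.17 ± 0.04 (adjusted p = 0.000629). With total-count scaling the Septin11 difference was -0.08 and did not pass (adjusted p = 0.0845). For Septin11 the APOE3 difference alone, -0.15 ± 0.06 (adjusted p = 0.0269), did not hold without APOE3 TBI replicate 1 or 2 or APOE3 sham replicate 6, with adjusted p up to 0.0588. By genotype, neither the Septin6 nor the Septin11 call held with total-count scaling in either genotype (adjusted p from 0.0537 to 0.38), nor in shallow libraries in APOE3 (0.294 and 0.161) or deep libraries in APOE4 (0.0535 and 0.148). The Septin6 call in APOE4 was also lost with the disputed animals placed by characteristics (adjusted p = 0.053). The Septin11 calls were also lost in APOE3 without the title letter (adjusted p = 0.0502) and in deep libraries (0.127), and in APOE4 in shallow libraries (0.06). An antisense gene, Gm15008, shares 3.1% of the Septin6 exonic bases, and whether the counting used strand is not given in the sources used here.

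Septin10 was the lowest septin by count, with 17 to 121 counts per library, and it is the least described member of the group (chr10:59141624-59221500, minus strand). In APOE3 mice its lowest, median and highest level was 8.29, 9.69 and 11.9 CPM in sham and 9.80, 13.4 and 17.8 in TBI. In APOE4 mice it was 7.31, 10.4 and 14.4 CPM in sham and 8.69, 13.3 and 26.8 in TBI. In APOE3 mice 7 of 8 TBI animals lay above every sham, while in APOE4 mice 2 of 8 did. Septin10 was 32.5% higher over both genotypes, a log2 difference of 0.41 ± 0.12 (adjusted p = 0.00256), and 0.34 ± 0.10 without APOE4 TBI replicate 6, its highest animal (adjusted p = 0.00276). It rose by 0.46 ± 0.17 in APOE3 mice (adjusted p = 0.0175). In APOE4 mice the log2 difference was 0.35 ± 0.16 (adjusted p = 0.058), and 0.22 ± 0.14 without replicate 6 (adjusted p = 0.157). In 5 of the 30 fits that left out 1 animal it passed, with values up to 0.46 and adjusted p down to 0.0216. Those animals were replicates 1 and 2 of APOE4 sham and replicates 2, 4 and 5 of APOE4 TBI. The APOE4 value was 0.79 ± 0.30 in shallow libraries (adjusted p = 0.0473) and 0.08 ± 0.14 in deep ones (adjusted p = 0.59). It passed with total-count scaling (0.45, adjusted p = 0.0264), without the title letter (0.38, adjusted p = 0.0477) and with the disputed animals placed by title (0.39, adjusted p = 0.0344). Over both genotypes the shallow and deep values were 0.63 and 0.28, and the APOE3 value did not pass in shallow libraries (0.47, adjusted p = 0.21). Replicate 6 also had the highest sums of its group for the microglia (4795 CPM), oligodendrocyte, oligodendrocyte precursor, endothelium, ependymal and blood marker lists, and the lowest for inhibitory neurons (1411 CPM). The part of these in the Septin10 value was not tested.

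By genotype, the injury test called 8 septins in APOE3 mice, where 72.3% of tested genes were called, and 6 in APOE4 mice, where 64.8% were. The groups were fully apart for 1 septin in APOE3, Septin5, and for 0 in APOE4, where 11.6% of tested genes were apart. Over both genotypes they were apart for 0 septins and for 6.18% of tested genes. The difference between the genotypes' injury effects was tested as an interaction, which called 0 septins and 0.0% of tested genes. At an unadjusted p under 0.05 it also named 0 septins, against 1.84% of tested genes, and DESeq2 and limma-voom called 0. Septin2 had the smallest unadjusted interaction p, with an effect in APOE4 minus that in APOE3 of -0.15 ± 0.11 on the log2 scale and a 95% interval from -0.37 to 0.07 (adjusted p = 0.999). The widest interval was that of Septin10, from -0.58 to 0.37, and the narrowest that of Septin3, from -0.13 to 0.14, and for Septin2, Septin4, Septin7, Septin10 and Septin11 the interval reached a difference as large as the gene's own injury effect.

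**Figure D2:**
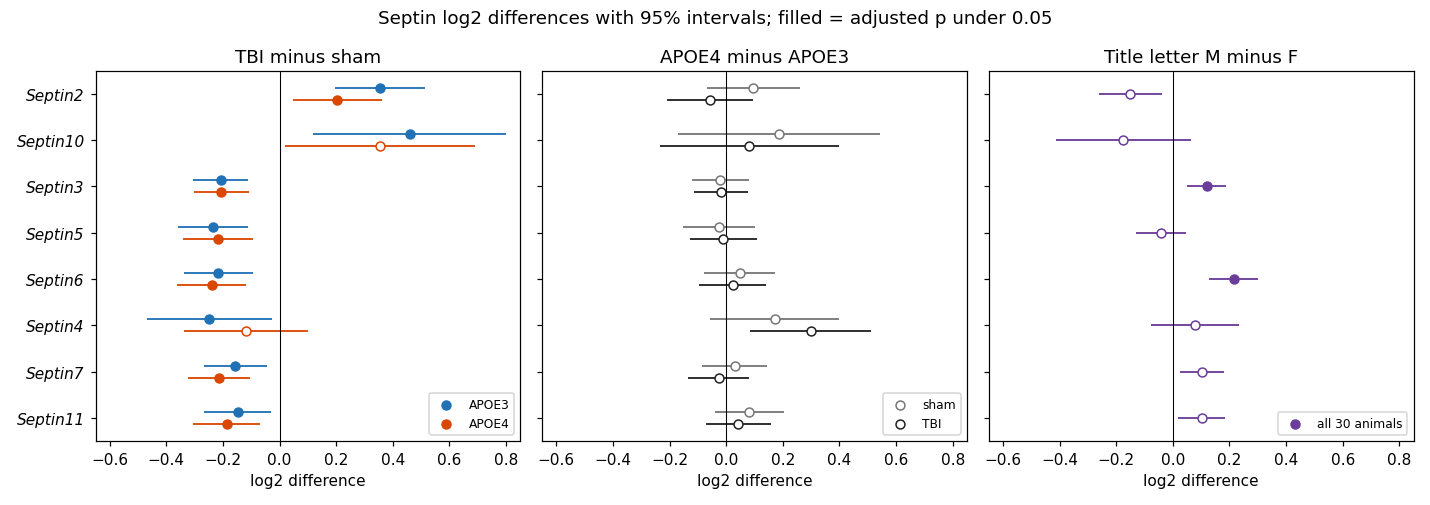
Log2 differences of the 8 septins (x axis) with 95% intervals for TBI minus sham in each genotype, APOE4 minus APOE3 in each injury state, and title letter M minus F. Filled points had an adjusted p under 0.05; injury points lie right of 0 for Septin2 and Septin10 and left of 0 for the other 6, and all genotype points are open.

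Human APOE4 against human APOE3 moved no septin past the threshold. The edgeR test called 0 septins over both injury states, 0 in sham and 0 in TBI, against 1.82%, 0.168% and 0.447% of tested genes, and DESeq2 and limma-voom called 0 in each. At an unadjusted p under 0.05 there was 1 septin over both states (13.8% of tested genes), 0 in sham (5.77%) and 1 in TBI (11.2%), in each case Septin4 where there was 1. Septin4 had a median of 244.9 CPM in APOE3 sham and 277.5 in APOE4 sham, and 216.3 in APOE3 TBI and 245.3 in APOE4 TBI. In each injury state 4 APOE4 animals lay above every APOE3 animal and the rest overlapped. The log2 difference was 0.24 ± 0.08 over both states, with a 95% interval from 0.08 to 0.39 (adjusted p = 0.114), 0.17 ± 0.11 in sham (adjusted p = 0.944) and 0.30 ± 0.10 in TBI (adjusted p = 0.233). Leaving out APOE4 TBI replicate 7, the lowest of its group at 175.8 CPM, gave 0.27 over both states (adjusted p = 0.0337) and 0.37 in TBI (adjusted p = 0.0491). No other single omission changed either call. Over all single omissions the Septin4 difference ran from 0.17 to 0.27 over both states (adjusted p up to 0.186). In TBI it ran from 0.17 to 0.37 (adjusted p up to 0.468). For the other 7 septins the difference over both states ran from -0.02 for Septin3 to 0.13 for Septin10. The 95% interval of Septin3 ran from -0.09 to 0.05 and that of Septin7 from -0.08 to 0.08, so larger genotype differences than these bounds lay outside the intervals for those genes.

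The change in the family's makeup was read from ratios within a library, which do not depend on scaling between libraries. The ratio of Septin2 to Septin7, the core subunit, had a median of 0.119 in sham (range 0.101 to 0.138) and 0.154 in TBI (range 0.130 to 0.247). The Septin10 to Septin7 ratio had a median of 0.00973 in sham and 0.0150 in TBI. In contrast the Septin3 to Septin7 ratio had medians of 1.35 and 1.34, and that of Septin11 0.208 and 0.206. Of 16 TBI animals, 13 had a Septin2 to Septin11 ratio above every sham, and 13 had a Septin4 to Septin10 ratio below every sham, the most of any pair in each direction. The ratios among the 6 septins that were lower moved by at most 0.10 in their median log2 value. The injury contrast had chosen the table, so these ratios are a description.

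**Figure D3:**
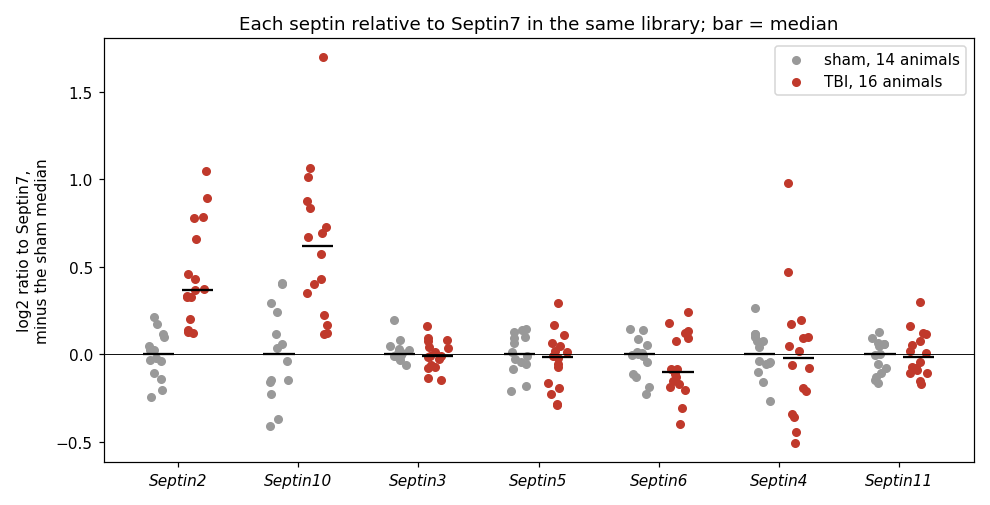
Log2 ratio of each septin to Septin7 in the same library, with the sham median set to 0 (y axis), in 14 sham and 16 TBI animals. Bars are medians; Septin2 and Septin10 lie above 0 in TBI, and the medians of Septin3, Septin4, Septin5, Septin6 and Septin11 lie near 0.

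Levels between septins were compared per kilobase of the GENCODE exon model, as shares of the 8 genes' sum. In sham brain Septin5 took 39.95% ± 1.99 (SD, n = 14), Septin3 29.4% ± 1.07, Septin7 12.2% ± 0.411 and Septin4 10.2% ± 1.05. The remaining shares were 3.10% ± 0.234 for Septin11, 2.55% ± 0.211 for Septin6, 2.12% ± 0.215 for Septin2 and 0.455% ± 0.0933 for Septin10. With coding length as the divisor Septin3 (35.5%) stood above Septin5 (26.2%), and Septin7 took 22.1%, so the order at the top depended on the gene model while Septin10 stayed lowest. Neighbours in this order whose ranges over the shams overlapped were Septin7 and Septin4, Septin11 and Septin6, and Septin6 and Septin2. After TBI the Septin2 share was 2.97% ± 0.549 (SD, n = 16) and the Septin10 share 0.713% ± 0.230.

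Animals within a group also differed, and here too the septins fell on different sides. After group means and title letter were removed, Pearson's r of residual log2 CPM over 30 animals was 0.71 between Septin3 and Septin7, 0.61 between Septin3 and Septin5, and 0.55 between Septin2 and Septin10. It was -0.66 between Septin4 and Septin5 and -0.63 between Septin2 and Septin3. Of 28 pairs, 14 were positive and the median r was 0.01. These are descriptions of values that share libraries, depth and scaling, and with depth class also removed 13 pairs were positive. The same residuals were set beside the mean residual log2 CPM of each marker list, which is not the summed CPM given above. They gave r = 0.77 for Septin3 and for Septin5 with excitatory neuron markers, and -0.82 for Septin3 with astrocyte markers. Septin2 had r = 0.64 with astrocyte markers and 0.71 with markers of blood and infiltrating cells, a list of 4 tested genes each at 0 in some animal. Septin4 had its highest value with the 5 tested oligodendrocyte and myelin markers (0.63), and Septin10 with microglia markers (0.59).

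For each septin the 3 tested genes with the most similar residuals were taken. Septin5 was most like Slc17a7, the vesicular glutamate transporter of cortical excitatory neurons (r = 0.94), then Adam11 (0.92) and Ptprn (0.91). Septin3 was most like Mapk10, the neuronal Jun kinase (0.91), Syt1, the calcium sensor of synaptic vesicles (0.86), and Dnajc6, the clathrin-uncoating protein auxilin (0.84). Septin7 was most like Matr3 (0.87), Gabra4, a GABA-A receptor subunit (0.87), and Rnf11 (0.86). Septin11 was most like Mef2c, a neuronal transcription factor (0.76), Strbp (0.72) and Camk2n1, an inhibitor of CaM kinase II (0.71).
Septin2 was most like Tmem47 (0.81), Elk3 (0.79) and Itpripl2 (0.79). Septin10 was most like Capg, an actin-capping protein (0.81), Casp12 (0.77) and Osmr, the oncostatin M receptor (0.76). Septin4 was most like Scn4b, a sodium channel beta subunit (0.80), the potassium channel subunit Kcnab3 (0.79) and Pacs2 (0.79). Septin6 was most like Ramp3 (0.77), Xxylt1 (0.74) and Sars (0.69). No septin was among the 3 for another septin.

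Known partners of the septins were read from fixed lists. All 10 tested genes of the exocytosis machinery that septins bind or border were lower after TBI, in a table where 93.9% of tested genes were called and 45.9% were called lower, with a median log2 difference of -0.17, against 0.10 over all tested genes. Among them were Snap25 (-0.41 ± 0.04, adjusted p = 1.28e-09), Stx1a, the syntaxin that Septin5 binds (-0.28 ± 0.05, adjusted p = 5.77e-06), and Napa (-0.23 ± 0.04). Both tested Borg proteins, Cdc42 effectors that bind septins, were higher, as 48.1% of tested genes were: Cdc42ep4 by 0.32 ± 0.07 (adjusted p = 7.95e-05) and Cdc42ep1 by 0.21 ± 0.09 (adjusted p = 0.021).
Of 7 tested anillin and actomyosin partners (15 listed), 2 were higher, 3 were lower and 2 did not pass, with Cit at -0.38 ± 0.09, Rock2 at -0.32 ± 0.06, Myl9 at 0.25 ± 0.10 and Myh10 at -0.18 ± 0.03. Of 9 other tested binders, kinases and ligases (20 listed), 3 were higher and 6 lower, and with so large a share of all genes called these counts show nothing particular to the lists. Slc1a3, the astrocyte glutamate transporter that binds Septin2 in mouse brain, was higher by 0.52 ± 0.05 (adjusted p = 6.08e-10), and it also stands in the astrocyte list. Cdc42bpa (-0.27 ± 0.04) and Ncald (-0.26 ± 0.04) were lower, and Park2, which encodes parkin, a ubiquitin ligase for Septin5, was higher at 0.25 ± 0.09 (adjusted p = 0.0102). Ncald was also the 1 gene of the partner lists called between genotypes, 0.17 higher on the log2 scale in APOE4 (adjusted p = 0.0181).

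The title letter gave the only septin calls outside the injury contrast. Septin6 and Septin3 were higher in animals titled M, and these were 2 of 8 septins where 16.7% of all tested genes were called and 6.7% of all tested genes were called higher in M. At an unadjusted p under 0.05 there were 5 septins and 32.3% of tested genes. For Septin6 the lowest, median and highest level was 156.4, 169.7 and 196.4 CPM in 7 sham animals titled F and 175.7, 194.3 and 204.0 in 7 titled M. Among TBI animals it was 115.3, 142.0 and 158.6 CPM in 8 titled F and 156.2, 175.0 and 180.8 in 8 titled M. The letters overlapped in both states, least among the TBI animals. Septin6 differed by 0.21 ± 0.04 on the log2 scale, 16.02% higher in M (adjusted p = 0.00163), and Septin3 by 0.12 ± 0.03, 8.68% higher (adjusted p = 0.0157). Septin2 (-0.15 ± 0.05, adjusted p = 0.0547), Septin7 (0.10 ± 0.04, adjusted p = 0.0631) and Septin11 (0.10 ± 0.04, adjusted p = 0.0835) did not pass, though DESeq2 called Septin7 and Septin11 as well, 4 septins in all.
In sham animals alone the Septin6 difference was 0.13 ± 0.05 (adjusted p = 0.286) and in TBI animals alone 0.29 ± 0.06 (adjusted p = 0.0147). That of Septin3 was 0.07 ± 0.03 (adjusted p = 0.404) and 0.17 ± 0.06 (adjusted p = 0.0664), and whether the letter difference depends on injury was not tested. Within shallow and deep libraries Septin6 differed by 0.22 and 0.21, and neither passed. Marker genes moved with the letter as well: 4 of 14 astrocyte, 4 of 15 microglia, 4 of 7 endothelium, 3 of 11 excitatory neuron and 0 of 7 inhibitory neuron genes were called, against the 16.7% of all tested genes, with summed microglia markers from 1145 to 4795 CPM in F and 1079 to 3727 in M. Their part in the Septin6 and Septin3 differences was not tested.

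**Figure D4:**
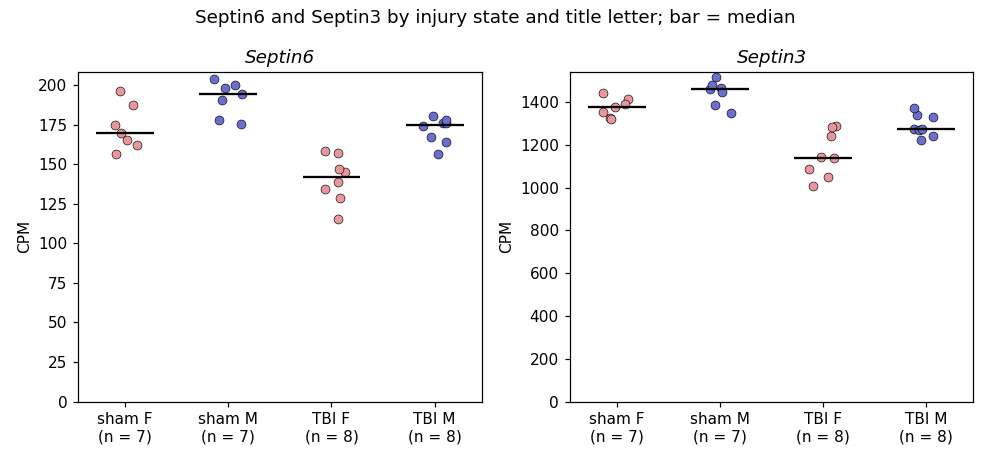
CPM (y axis from 0) of Septin6 and Septin3 in animals titled F and M, sham (7 and 7) and TBI (8 and 8). Bars are medians; those of animals titled M are higher in both states for both genes, and the ranges overlap.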

How the data were processed

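The authors deposited 1 table of raw counts per gene for 32 libraries, with their own log2 coefficient and p-value for TBI against sham, per the file headers. Subread 1.5.0, edgeR 3.14.0 and mouse build mm10 are named in the submitters' processing notes, with no role given, and the annotation and strand setting are not given in the sources used here. Coordinates and gene models come from the RefSeq gene table and GENCODE of GRCm38.p6. Groups followed the labels, and 2 animals with conflicting labels were left out. Counts were fitted with edgeR 4.0.16 in R 4.3.3 (TMM scaling, filterByExpr, 5371 genes kept and 211 dropped, quasi-likelihood test), with a mean for each of the 4 groups and the title letter, and p-values were adjusted by Benjamini-Hochberg over all kept genes at 0.05. A prior count of 1 was added for log2 CPM. The model was tested on simulated data. In these only a sample of the genes changed, as many up as down, unlike the listed genes. Scaling under a change in most genes was therefore not tested. Alternatives were DESeq2 1.42.0, limma 3.58.1 (voom), total-count scaling, no filter, no title letter, depth class as a covariate, each depth class alone, other placements of the disputed animals, smaller models and each animal left out. The letter fits within sham and within TBI, and the summed septins under total-count scaling, were added after the data were seen. All septins were named, with the 3 genes most like each, from each list at most 4 members, those of largest injury difference, and list members with a genotype call; 1 gene that this rule names is not reported here. The members and lists were chosen with earlier results of these data known. Counts limit precision most for Septin10, at 17 to 121 per library.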

Additional observations from a re-analysis of the deposited data

Results flagged for a closer look

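Within each of the 4 groups the gap between the most extreme animal and its nearest neighbour was set against the group's range for each septin, and 2 of 32 sets stood out, where chance marks about 1 in 20. Septin10 in APOE4 TBI replicate 6 was 26.83 CPM, the highest of 8 animals, with the next at 15.67 and the lowest at 8.69. Septin11 in APOE3 TBI replicate 3 was 218.4 CPM, the highest of 8, with the next at 192.5 and the lowest at 174.3, and without that animal the Septin11 injury difference over both genotypes was -0.17 on the log2 scale (adjusted p = 0.000394, edgeR).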

How the results depend on the processing

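No injury direction of a septin was reversed under any alternative run. Total-count scaling raised all injury log2 differences by a median of 0.09 and the share of higher genes among injury calls from 51.2% to 70.3%, and left 4 septins called in APOE3 (8 in the main analysis) and 6 over both genotypes, without Septin4 (adjusted p = 0.353) and Septin11 (0.0845). Shallow libraries alone called 3 in APOE3. In APOE4, where 6 were called, deep libraries alone called 0 and placing the disputed animals by their characteristics gave 3. The deep libraries were 2 animals of each title letter in each group. There the APOE4 differences were 0.20 for Septin2, -0.22 for Septin3, Septin5, Septin6 and Septin7, and -0.17 for Septin11. The main values, in the same order, were 0.20, -0.21, -0.22, -0.24, -0.21 and -0.19. For the title letter (2 calls) DESeq2 called 4, TBI animals alone 1, and shallow, deep or sham animals alone 0. Leaving out each animal in turn gave 7 to 8 injury calls over both genotypes, 6 to 8 in APOE3, 5 to 7 in APOE4, 2 to 5 for the letter, and 0 to 1 for genotype over both states and in TBI. Sham shares by coding length were 35.5% for Septin3, 26.2% Septin5, 22.1% Septin7, 4.83% Septin4, 4.51% Septin11, 3.70% Septin6, 2.96% Septin2 and 0.211% Septin10. All reversals were of differences that had not passed. For genotype over both states, Septin2 was -0.009 by characteristics and -0.004 in shallow libraries, Septin3 0.007 in deep, Septin5 0.014 by title, 0.026 by characteristics and 0.039 in shallow, and Septin7 -0.018 in shallow. In sham, Septin3 was 0.005 and Septin6 -0.018 in deep, Septin5 0.031 by title and 0.059 in shallow, and Septin10 -0.107 in shallow. In TBI, deep libraries gave 0.012 for Septin2, 0.009 for Septin3, 0.04 for Septin7 and -0.011 for Septin10, while Septin5 was 0.067 by characteristics and 0.018 in shallow, and Septin11 -0.019 in shallow. For the interaction, Septin3 was -0.015 without the title letter and -0.008 by characteristics, Septin5 -0.035 by title and -0.042 in shallow, Septin6 0.045 by characteristics and 0.062 in deep, and Septin10 0.321 in shallow. For the letter, Septin10 was 0.046 in deep libraries and 0.086 in sham animals. The cause was not tested. No paired analysis was possible because the titles carry animal numbers and no replicate number shared between groups.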

Other observations

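The 2 animals whose labels conflict were in no comparison. E2073, titled as sham and described as TBI, had 1487 CPM of Septin5 and 213.7 CPM of Septin6, each above every compared animal, 318.1 CPM of Septin4, and 1133 of Septin3, 986.1 of Septin7, 171.1 of Septin11, 109.3 of Septin2 and 7.46 of Septin10. Its Septin3 and Septin11 lay below every sham, and its Septin2 and Septin10 below every TBI animal. F1372, titled as APOE3 and described as APOE4, lay within the sham range for all 8 septins, with 1488 CPM of Septin3, 1114 of Septin5, 115.9 of Septin2 and 10.9 of Septin10.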
